A study of Mus musculus with 15 samples.

Results

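A set of 40 mouse genes that are transcribed mainly in the oocyte was followed on arrays of cumulus cells, the follicle cells that enclose the oocyte. Members were the probes whose gene symbol in the authors' table of 20855 gene probes was on the list. In this way 36 of the 40 genes were found, on 37 probes. Only Oosp1 had 2 probes, A_52_P195135 and A_55_P2013431. The other 4 genes (Dazl, Figla, Nlrp9b and Ooep) had probes on the array but none in the table, and their probes were well above background in 4 (Dazl), 2 (Figla), 0 and 3 (the 2 Nlrp9b probes) and 0 (Ooep) of the 15 arrays.

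The 15 one-colour arrays held RNA of cumulus cell pools from B6CBAF1/J mice, 5 pools for each of 3 stages. The juvenile stage (NC1) was unexpanded complexes punctured from the ovaries of 3-week-old mice, whose prophase I oocytes are meiotically competent but fail to develop after meiosis resumes. The adult prophase I stage (C1) was unexpanded complexes of 8-week-old mice, with developmentally competent oocytes. The adult metaphase II stage (C2) was expanded complexes taken from the oviduct of superovulated 8-week-old mice, with fully competent oocytes. Oocytes were removed by pipetting at NC1 and C1, and after a few seconds in 300 µg/ml hyaluronidase at C2. Age thus differed with the stage between NC1 and C1. Hormones, site of collection and enzyme differed between prophase I and C2, and the NC1 part of the prophase I arrays also came from younger mice than C2. These factors cannot be told apart from the stage in this design. Each pool came from several mice, so that the spread between arrays is a spread between pools.

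During its growth the oocyte transcribes and stores the messengers needed for its coat, for meiotic maturation and for the first divisions of the embryo. Transcription stops before meiosis resumes, and from then on the levels of maternal messengers are set by stability and by the length of the poly(A) tail. Some maternal messengers are degraded during maturation while others, such as Mos and Btg4, are stored and then translated. The oocyte and its cumulus cells are coupled by projections that cross the zona pellucida, and oocyte-secreted factors such as GDF9 and BMP15 act on the cumulus cells. The labelled tissue of these arrays was cumulus cells after removal of the oocyte. The presence of oocyte messengers was not assumed, and their levels were measured for probes present in at least 1 stage.

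The promoters of 4 members are shown because these genes stood at the opposite ends of the results below: Zp3 and Padi6 were lower in all C2 arrays than in any prophase I array, while Btg4 and Tcl1 lay within the prophase I range in 3 of the C2 arrays. The sequences are those of RefSeq (build GRCm38.p6), 250 bases before the annotated start and on the strand of the gene. Zp3 lies on the plus strand at chr5:135979855-135980104, Padi6 on the minus strand at chr4:140742644-140742893, Btg4 on the plus strand at chr9:51115751-51116000 and Tcl1 on the minus strand at chr12:105222738-105222987. Capitals mark the E-box letters CANNTG, which read the same on both strands and are the letters bound by FIGLA, the oocyte factor known to activate the zona genes.
Zp3: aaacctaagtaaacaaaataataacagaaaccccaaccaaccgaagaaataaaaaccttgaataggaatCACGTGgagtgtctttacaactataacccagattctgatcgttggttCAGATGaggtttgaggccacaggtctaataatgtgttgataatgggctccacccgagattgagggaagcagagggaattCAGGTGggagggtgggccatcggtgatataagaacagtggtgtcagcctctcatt
Padi6: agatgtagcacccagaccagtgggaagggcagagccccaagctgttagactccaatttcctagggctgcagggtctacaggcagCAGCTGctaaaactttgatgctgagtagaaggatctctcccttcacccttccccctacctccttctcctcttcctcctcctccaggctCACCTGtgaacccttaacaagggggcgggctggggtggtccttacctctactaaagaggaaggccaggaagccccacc
Btg4: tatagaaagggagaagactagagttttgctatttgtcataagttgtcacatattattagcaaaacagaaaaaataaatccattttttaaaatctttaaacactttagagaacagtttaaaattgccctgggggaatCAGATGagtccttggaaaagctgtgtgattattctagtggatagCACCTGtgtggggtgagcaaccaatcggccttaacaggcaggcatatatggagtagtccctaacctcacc
Tcl1: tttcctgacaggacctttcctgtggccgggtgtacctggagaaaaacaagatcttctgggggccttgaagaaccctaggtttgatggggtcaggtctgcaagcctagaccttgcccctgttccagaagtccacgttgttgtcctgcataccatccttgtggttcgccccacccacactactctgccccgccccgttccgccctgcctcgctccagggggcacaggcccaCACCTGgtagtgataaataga

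These windows held 3 (Zp3), 2 (Padi6), 2 (Btg4) and 1 (Tcl1) E-box matches. Of the 40 listed genes, 31 had a RefSeq promoter, on 37 windows because some have several starts, and 31 of the 37 windows (83.8%) held at least 1 match, against 66.2% of 32851 windows of all genes. The match was present in 11 of 15 windows of the members that were lower at C2 and in 15 of 15 windows of the members that lay within the prophase I range in C2 replicates 1 to 3. A match is a description of letters and no evidence of binding. Zp1, Zp2, Gdf9, Nlrp14, Dppa3, Mos, Npm2, Oas1d and Bcl2l10 had no entry.

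All levels below are log2 signals after subtraction of each array's median over 17323 well-measured probes, so that 0 is the level of the middle probe and 1 unit is a 2-fold difference. Levels of different probes cannot be set against each other, but differences can. Between 18366 and 24493 gene probes per array were called well above background by the scanner software, and no gene spot was saturated. Cumulus markers were present on all arrays: 11 of 12 cumulus and granulosa markers were well above background in all 15, Kitl being the exception. The 5 C2 arrays did not form one group for the oocyte genes. Replicates 4 and 5 stood apart from replicates 1 to 3, as did NC1 replicates 1 and 2 from the other NC1 arrays to a lesser degree. The labels do not separate these arrays, and the split was known from values of these genes, so it is given as a description, array by array, and the 2 sets of arrays are not tested against each other. Replicates 1, 2, 3, 4 and 5 of C2 lay on slides 4, 3, 2, 3 and 1, each slide also held NC1 and C1 arrays, and slide 3 held replicates of both kinds.

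In the prophase I arrays, 32 of the 37 probes were well above background in all 10. The table held only probes present in at least 1 stage, so that detection in some stage was set by this choice. The 4 listed genes without a probe in the table are not in these counts. In C2 the number of member probes well above background was 33, 31 and 29 in replicates 1 to 3 and 11 and 9 in replicates 4 and 5. Of all 39429 gene probes on the array, 22117, 20454 and 18366 were well above background in replicates 1 to 3. In replicates 4 and 5 the numbers were 20794 and 18845. Of the 37 probes, 20 were above background in each of replicates 1 to 3 and in neither of replicates 4 and 5 (Zp1, Zp3, Bmp15, Nlrp5, Nlrp4f, both Oosp1 probes, Dppa3, Tcl1, Padi6, Oas1d, Rfpl4, Zar1, Btg4, Ddx4, Bcl2l10, Cpeb1, Astl, Omt2b and Fbxw15). Another 8 were above background in all 5 C2 arrays (Gdf9, H1foo, Npm2, Kit, Uchl1, Pabpc1l, Zbed3 and Tle6). Fewer oocytes or oocyte parts in a pool and less of a messenger per oocyte cannot be told apart on these arrays.

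**Figure D1:**
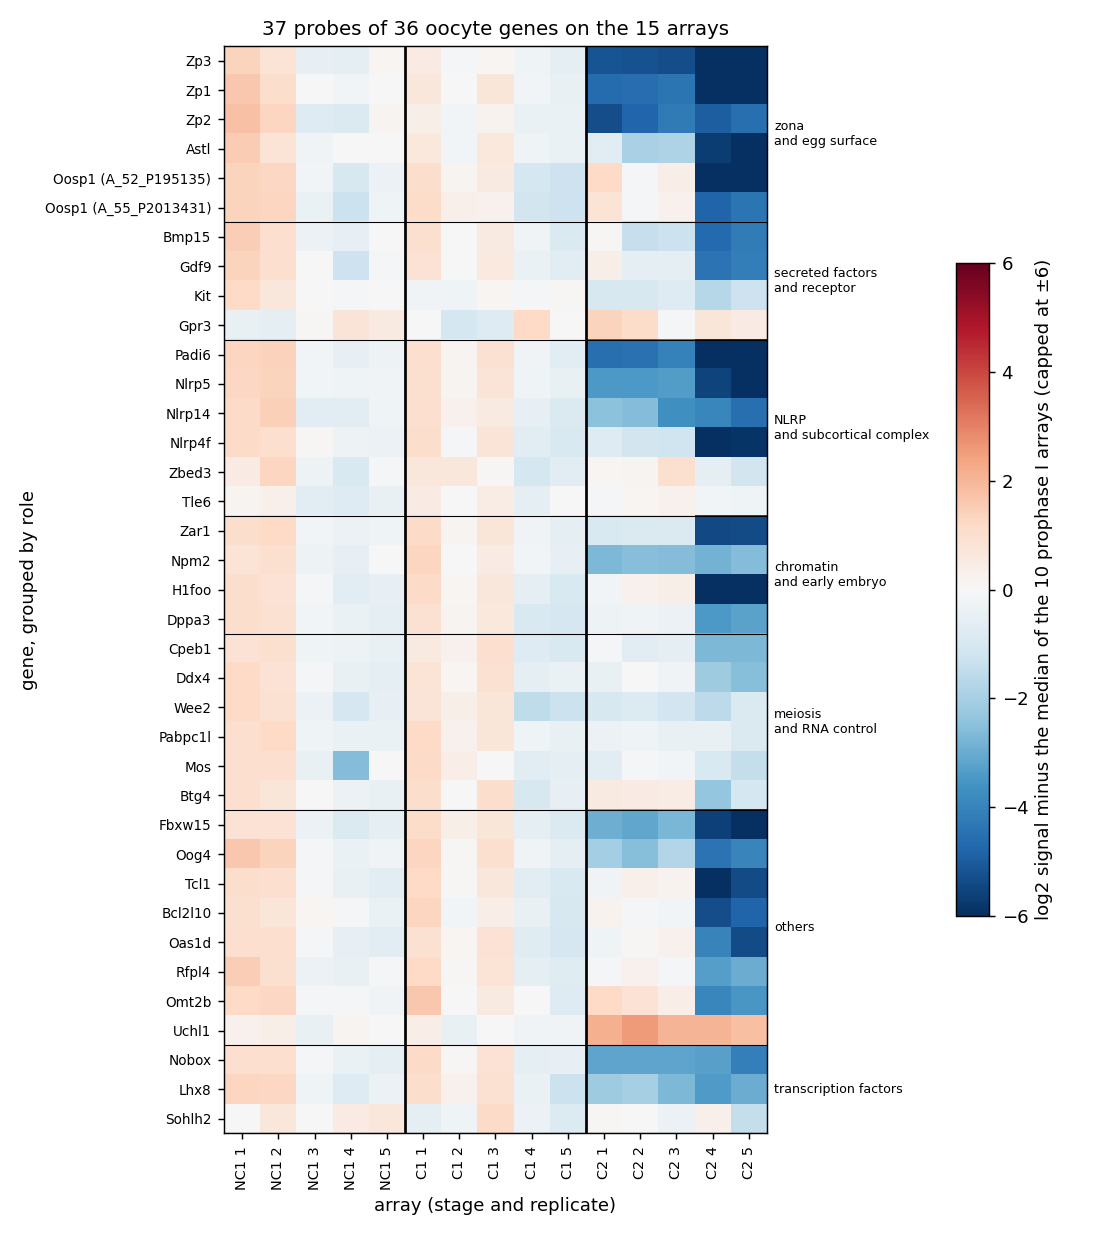
Log2 signal of the 37 oocyte gene probes (rows, grouped by role) on the 15 arrays (columns), as the difference from the median of the 10 prophase I arrays (colour, capped at ±6). The rows are mostly pale in C2 replicates 1 to 3 except the zona genes, Padi6, Nlrp5, Nlrp14, Npm2, Fbxw15, Oog4, Nobox and Lhx8, and dark blue in C2 replicates 4 and 5, where 30 of the 37 probes lay below all prophase I arrays.

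Between the 2 prophase I stages, the question was whether oocyte messengers differed between developmentally incompetent and competent complexes. None of the 37 probes differed between C1 and NC1 by limma at an adjusted p under 0.01, and none had an unadjusted p under 0.05, whereas 2.10% of all probes were called higher and 0.839% lower at C1. The median difference of the members, C1 minus NC1, was -0.14, against -0.03 over all probes. The spread between pools was wide for these genes. The median member had an SD of 0.80 over the NC1 arrays, 0.78 over the C1 arrays and 1.26 over the C2 arrays, against 0.23, 0.26 and 0.22 for the median of all probes. An adjusted p above the threshold does not show that the stages were alike. For Gdf9 the difference was -0.13 ± 0.83 (SE) and for Zp3 it was -0.30 ± 0.42.

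The members varied together within each prophase I stage. NC1 replicates 1 and 2 were both above NC1 replicates 3 to 5 for 35 of the 37 probes, a pattern that 20.4% of all probes had, and C1 replicate 1 was the highest of the C1 arrays for 29 of 37, against 14.5% of all probes. Sohlh2 and Gpr3, which were close to background, were the 2 exceptions at NC1. Gdf9, for example, was at 4.07 and 3.74 in NC1 replicates 1 and 2 and between 1.49 and 2.73 in the other NC1 pools. The 2 NC1 arrays that were high in oocyte messengers were also high in some markers of other cells. The summed level of 5 red blood cell markers was 8.38 and 8.78 there and 6.20 to 6.75 in the other NC1 arrays, and that of 7 theca and stroma markers was 5.65 and 5.03 against 3.40 to 3.88. The summed leukocyte level was 2.58 and 2.76 there, against 1.85 to 2.42. The summed cumulus and granulosa level was lower there, at 8.41 in both, against 8.76 to 8.94, and the oviduct epithelium level was 2.81 and 3.12 against 2.75 to 3.00. Their part in the oocyte signal was not tested.

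The second question was how the oocyte messengers differed between prophase I and metaphase II complexes. Over all 5 C2 arrays, 16 of the 37 probes were lower at C2 than in prophase I (28.4% of all probes were), 1 was higher (27.5% of all probes) and 20 were not called. The 16 were Zp1, Zp2, Zp3, Bmp15, Nlrp5, Nlrp14, Nlrp4f, Npm2, Padi6, Kit, Zar1, Nobox, Lhx8, Astl, Oog4 and Fbxw15, and the 1 that rose was Uchl1. Of the 16, only Npm2 and Kit were above background in at least 4 of 5 arrays of each stage. The table kept probes present in at least 1 stage, so a member low at C2 could enter it through prophase I. The direction of these calls and of the median difference was thus partly set by this choice. The median difference was -2.19 for the members and -0.03 for all probes, and -1.65 for the members when each C2 signal not above background was set to the lowest well-measured signal of its array. The F-test over the 3 stages called 15 of 37, a smaller share than the 52.4% called over all probes. Without C2 replicates 4 and 5, a fit added after the data were seen, 13 of 37 were lower (24.4% of all probes), the same 16 less Bmp15, Nlrp4f and Zar1. Uchl1 was higher in that fit too.

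Array by array, the count of member probes below the lowest of the 10 prophase I arrays was 14 in C2 replicate 1, 16 in replicate 2 and 17 in replicate 3, where 29.9%, 31.6% and 30.4% of all probes lay below. It was 31 in replicate 4 and 32 in replicate 5, with nearly unchanged shares of 29.8% and 31.3% over all probes. The median difference of the members from the prophase I median was -0.33, -0.60 and -0.55 in replicates 1 to 3 and -3.92 and -4.09 in replicates 4 and 5. For 31 of the 37 probes replicates 1 to 3 all lay above replicates 4 and 5, a pattern shown by 19.2% of all probes. The 6 others were Zp2, Npm2, Sohlh2, Uchl1, Wee2 and Gpr3. Among the 31, Nobox and Lhx8 were not above background in any C2 array, so that their order there carries no weight, Oog4 was above background in replicate 1 only, and the distance was under 0.1 for Tle6 and Pabpc1l. The smallest distance between these arrays, the lowest of replicates 1 to 3 minus the highest of replicates 4 and 5, had a median of 1.70 over the members and -0.28 over all probes, and 7 of the 20 probes with the largest distance on the whole table were members. With C2 signals not above background at the lowest well-measured signal of their array, 28 of the 37 probes kept the order (18.7% of all probes), the median distance was 0.74 over the members, and 8 of the 20 largest were members.

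**Figure D2:**
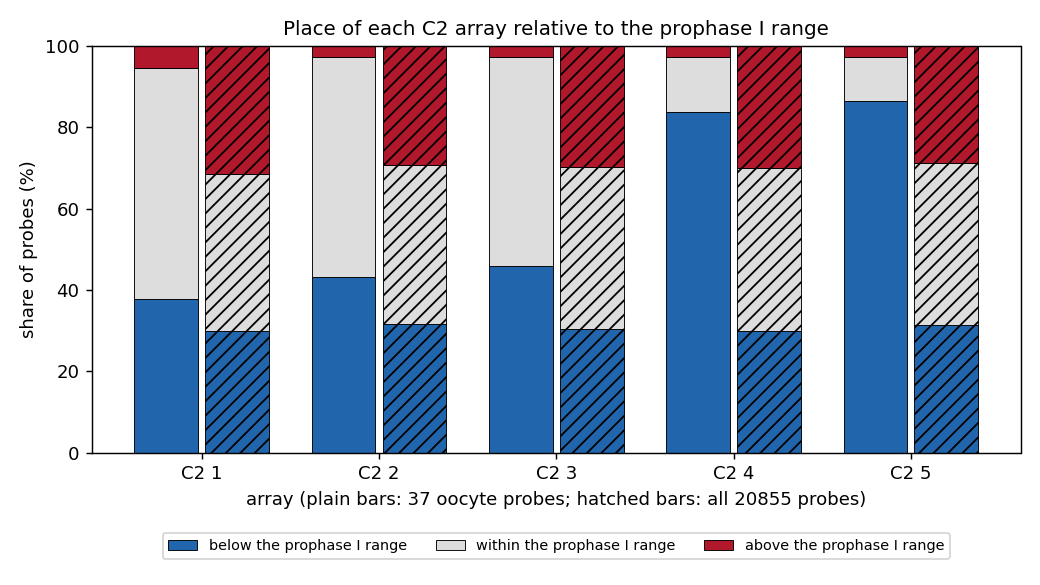
Share of probes (y axis, %) that lay below the lowest, within the range or above the highest of the 10 prophase I arrays, for each C2 array (x axis), in the 37 oocyte probes (plain bars) and in all 20855 probes (hatched bars). The oocyte bars change from 37.8% to 45.9% below in replicates 1 to 3 to 83.8% and 86.5% below in replicates 4 and 5, while the bars of all probes stay near 30%.

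In replicates 1 to 3 the members followed 2 main patterns. For 18 probes, C2 replicates 1 to 3 all lay within the prophase I range (22.8% of all probes): Gdf9, both Oosp1 probes, Dppa3, H1foo, Mos, Tcl1, Oas1d, Rfpl4, Btg4, Ddx4, Bcl2l10, Sohlh2, Cpeb1, Wee2, Zbed3, Tle6 and Omt2b. For 14 probes, they all lay below it (22.4% of all probes): Zp1, Zp2, Zp3, Nlrp5, Nlrp14, Npm2, Padi6, Kit, Zar1, Nobox, Lhx8, Astl, Oog4 and Fbxw15. Only Uchl1 had all 3 above it (22.5% of all probes), and Bmp15, Nlrp4f, Pabpc1l and Gpr3 were mixed. Replicates 4 and 5 were both below the range for 30 of 37 (26.6% of all probes). The genes of the 2 patterns were measured in the same 3 arrays.

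**Figure D3:**
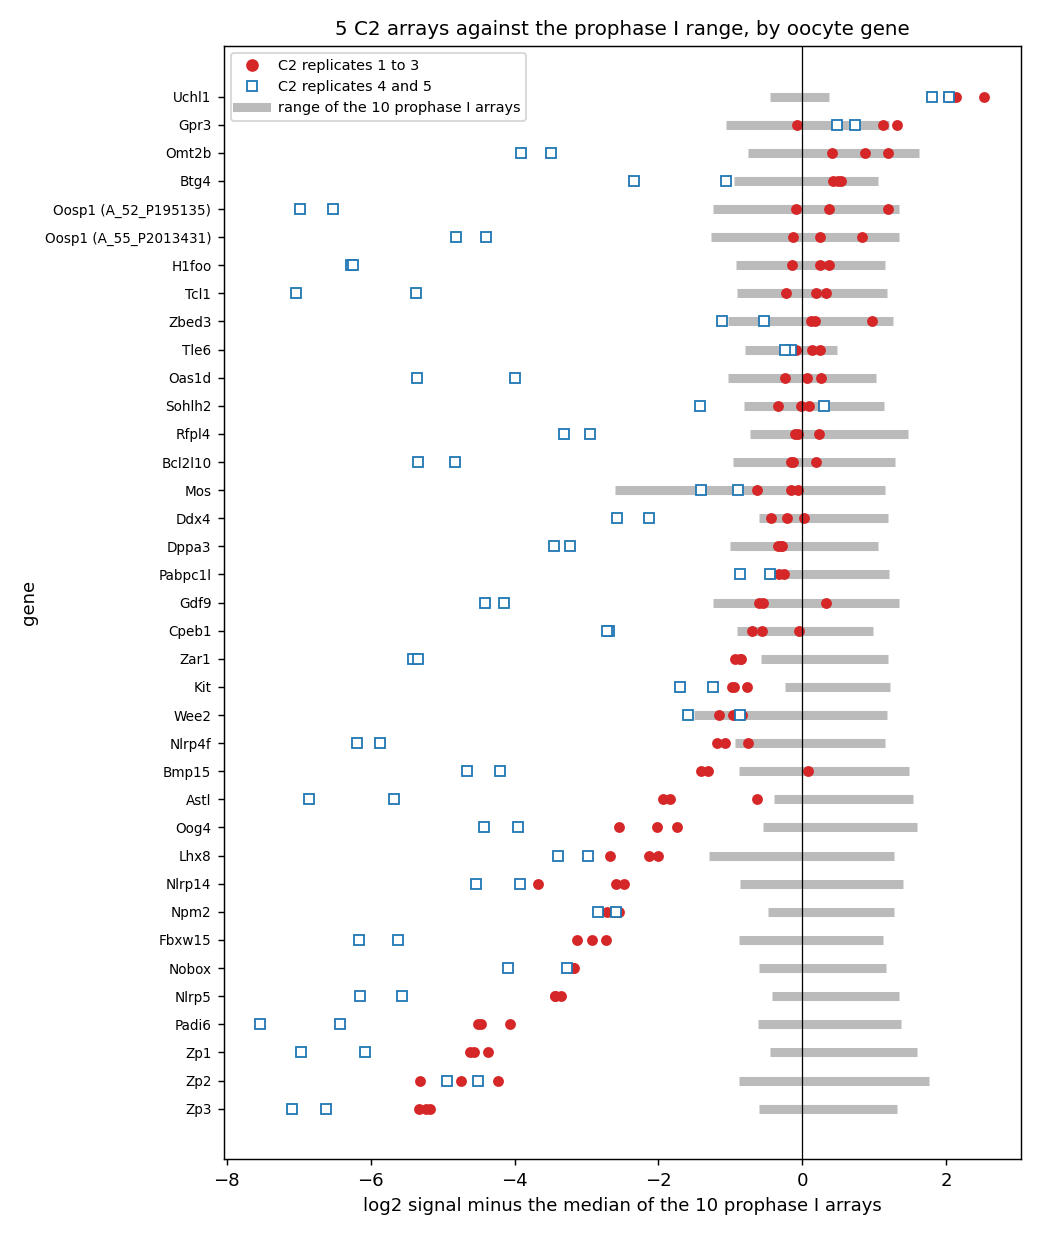
Difference of each of the 5 C2 arrays from the prophase I median (x axis, log2) for each member (y axis, ordered by the middle value of C2 replicates 1 to 3). Grey bars are the range of the 10 prophase I arrays, red dots C2 replicates 1 to 3 and open blue squares C2 replicates 4 and 5. Red dots run from near -5 for Zp3 and Zp2 to within the grey bar for genes such as Btg4, H1foo and Tcl1, whose blue squares lie outside it.

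The genes of the egg coat and surface held the largest difference among the members. Here and below, a value in parentheses with an SE is the difference C2 minus prophase I on the log2 scale, over all 5 C2 arrays. Where some C2 arrays were not above background, that difference rests partly on background, and a change of at least a given size is the one with these arrays set to their lowest well-measured signal. That signal is the lowest over all probes of the array and not the detection limit of each probe, so such sizes are approximate bounds. Zp1, Zp2 and Zp3 encode the glycoproteins of the mouse zona pellucida. The Zp3 probe ranged from 0.90 to 2.83 (median 1.51) in the 10 prophase I arrays and was at -3.67, -3.73, -3.82, -5.11 and -5.59 in C2 replicates 1 to 5. No C2 array overlapped the prophase I arrays, and the mean fell by 5.98 ± 0.37 on the log2 scale (SE, limma adjusted p = 1.28e-09), and at least 52.8-fold with the arrays not above background at the lowest well-measured signal. Zp1 ranged from 0.44 to 2.49 (median 0.89) in prophase I and was at -3.73, -3.67, -3.48, -6.07 and -5.19 in C2, and fell by 5.64 ± 0.42 on the log2 scale (SE, limma adjusted p = 1.19e-08). Both probes were above background in C2 replicates 1 to 3 only. Zp2 ranged from -3.06 to -0.42 (median -2.17) in prophase I, and its C2 signals of -7.49, -6.91, -6.40, -7.11 and -6.69 were not well above background in any array, which makes it at least 6.64-fold lower at C2 (limma adjusted p = 1.63e-08 in the fit).

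Astl encodes ovastacin, the cortical granule protease that cleaves ZP2 after fertilization. Its C2 signals were -0.05, -1.35, -1.25, -5.09 and -6.27, against values from 0.19 to 2.12 (median 0.58) in prophase I, and the mean fell by 3.66 ± 0.81 on the log2 scale (SE, limma adjusted p = 0.000905). All 5 C2 arrays lay below the prophase I range, replicate 1 by the least. Oosp1, which encodes a secreted oocyte protein, was different. Its probe A_52_P195135 ranged from -1.22 to 1.37 (median 0.03) in prophase I and was at 1.22, -0.06, 0.41, -6.96 and -6.49 in C2, and its probe A_55_P2013431 ranged from -3.61 to -1.001 (median -2.34) in prophase I and was at -1.51, -2.46, -2.09, -7.15 and -6.74 in C2. With both probes, C2 replicates 1 to 3 lay within the prophase I range and replicates 4 and 5 lay far below it and not well above background. Neither probe was called in the test of all 5 arrays, whose size rests on the background level of replicates 4 and 5 (-2.46 ± 1.20 SE, limma adjusted p = 0.0834, and -1.66 ± 0.88 SE, limma adjusted p = 0.11). In the same 3 C2 pools, Zp3 was -5.33 to -5.18 from its prophase I median on the log2 scale and Oosp1 (A_52_P195135) was -0.08 to 1.19 from its own.

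Among the secreted factors and receptors, Gdf9 and Bmp15 encode the oocyte's 2 growth factors of the TGF-beta family, which regulate cumulus cells. Gdf9 ranged from 1.49 to 4.07 (median 2.72) in prophase I and was at 3.06, 2.13, 2.17, -1.69 and -1.42 in C2. It was above background in all 15 arrays, and C2 replicates 1 to 3 lay among the prophase I arrays whereas replicates 4 and 5 lay below them. The mean difference of -2.01 ± 0.72 (SE, limma adjusted p = 0.0219) was not called. Bmp15 ranged from -3.33 to -0.97 (median -2.45) in prophase I and was at -2.37, -3.86, -3.76, -7.11 and -6.66 in C2, and fell by 2.51 ± 0.66 on the log2 scale (SE, limma adjusted p = 0.00339), or at least 1.64. Its replicate 1 lay within the prophase I range, and its call was lost when replicate 4 or replicate 5 was left out.

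Kit encodes the receptor of KIT ligand, which granulosa cells make for the growing oocyte. Its signals ranged from -2.28 to -0.82 (median -2.03) in prophase I and were -3.01, -2.98, -2.80, -3.73 and -3.27 in C2, and the mean fell by 1.27 ± 0.20 on the log2 scale (SE, limma adjusted p = 4.94e-05). All 5 C2 arrays were below all prophase I arrays, and replicates 1 to 3 exceeded replicates 4 and 5 by 0.27 at the closest. Gpr3 encodes the receptor that keeps the oocyte in meiotic arrest. It was near background, with signals of -2.75, -2.94, -4.13, -3.33 and -3.58 in C2 against values from -5.12 to -2.85 (median -4.06) in prophase I, and the groups overlapped (0.74 ± 0.34 SE, limma adjusted p = 0.0683).

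**Figure D4:**
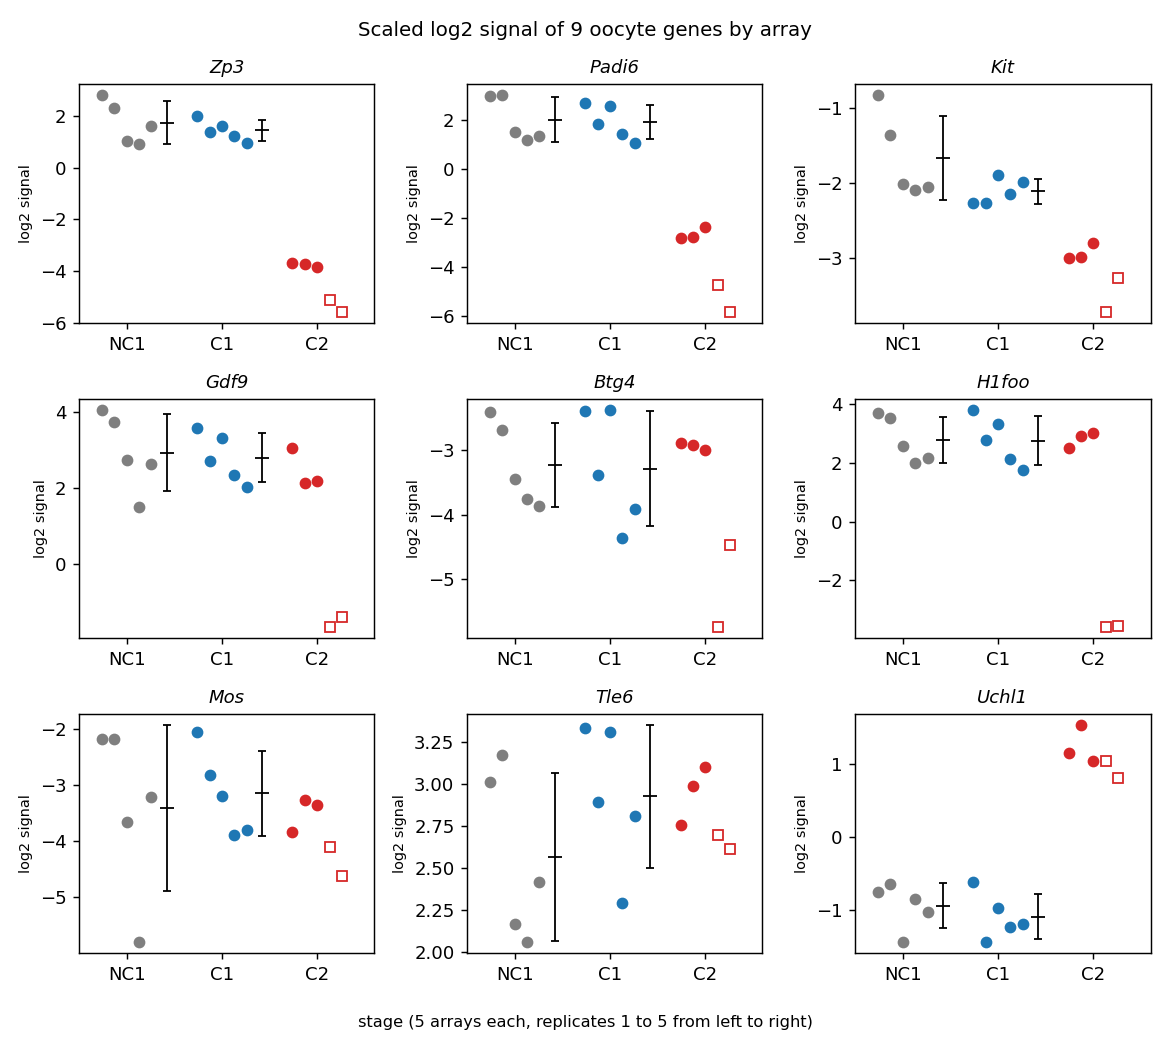
Scaled log2 signal (y axis, a separate scale for each gene) of 9 members on the 15 arrays, by stage (x axis), with replicates 1 to 5 from left to right, and black bars for the mean and SD (n = 5) of NC1 and C1. Filled circles are arrays and open squares are C2 replicates 4 and 5. Zp3, Padi6 and Kit are lower in all 5 C2 arrays, Gdf9, Btg4 and H1foo are low only in the open squares, Tle6 overlaps with prophase I in all 5, Mos overlaps in replicates 1 to 3 and otherwise only with NC1 replicate 4, and Uchl1 is higher in all 5.

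The NLRP proteins of the oocyte and the subcortical maternal complex, which lies under the egg membrane and is needed for the first cleavages, gave 6 probes. Padi6, a peptidylarginine deiminase of the cytoplasmic lattices, ranged from 1.07 to 3.06 (median 1.69) in prophase I and was at -2.82, -2.78, -2.37, -4.74 and -5.85 in C2. No C2 value came within the prophase I range, and the signal fell by 5.69 ± 0.54 on the log2 scale (SE, limma adjusted p = 1.72e-07), and by at least 42.9-fold with replicates 4 and 5, which were not above background, at the lowest well-measured signal. Nlrp5 (also called Mater), a core member of the complex, ranged from -0.98 to 0.80 (median -0.55) in prophase I and was at -3.99, -3.98, -3.91, -6.12 and -6.70 in C2, and fell by 4.71 ± 0.48 on the log2 scale (SE, limma adjusted p = 4.16e-07), or at least 4.03. Its replicates 1 to 3 spanned 0.08 and were well above background, unlike replicates 4 and 5.

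Nlrp14 fell by 3.57 ± 0.44 on the log2 scale (SE, limma adjusted p = 3.04e-06), or at least 2.88, with C2 signals of -4.15, -4.26, -5.35, -5.59 and -6.20 that were above background in replicates 1 and 2 only. Nlrp4f had C2 signals of -1.01, -1.34, -1.45, -6.45 and -6.13 against values from -1.19 to 0.89 (median -0.26) in prophase I. Replicate 1 was inside the prophase I range and replicates 2 and 3 just below it, and the mean fell by 3.19 ± 0.84 on the log2 scale (SE, limma adjusted p = 0.00354), or at least 2.56. This call was lost without replicate 4 or without replicate 5. Tle6, another member of the complex, did not share the pattern of Padi6 and Nlrp5. It ranged from 2.06 to 3.33 (median 2.85) in prophase I and was at 2.76, 2.99, 3.10, 2.69 and 2.61 in C2, all 5 values inside the prophase I range, and its difference was 0.09 ± 0.20 (SE, limma adjusted p = 0.724), with a sign that changed under quantile scaling. Zbed3, a binding partner in the complex, was at -2.98, -2.93, -2.14, -3.64 and -4.23 in C2 against values from -4.15 to -1.84 (median -3.11) in prophase I (-0.09 ± 0.39 SE, limma adjusted p = 0.853), and its sign changed under quantile scaling and under scaling to the median of all gene probes.

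The genes of chromatin and early embryo function were split. H1foo (H1f8) encodes the linker histone of the oocyte. Its signals ranged from 1.74 to 3.82 (median 2.67) in prophase I and were 2.52, 2.91, 3.04, -3.60 and -3.57 in C2. Replicates 1 to 3 lay in the middle of the prophase I range and replicates 4 and 5 were 6.10 or more below them, yet still above background. Over all 5 arrays the difference was -2.52 ± 1.05 (SE, limma adjusted p = 0.0449). Npm2 encodes nucleoplasmin 2, a chaperone of sperm chromatin remodelling. It ranged from -0.22 to 1.53 (median 0.25) in prophase I and was at -2.45, -2.29, -2.37, -2.59 and -2.33 in C2, and fell by 2.88 ± 0.27 on the log2 scale (SE, limma adjusted p = 1.85e-07). Its 5 C2 arrays spanned 0.30 and did not separate replicates 4 and 5 from the others, and all were above background.

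Zar1, a regulator of stored messengers, ranged from 0.21 to 1.97 (median 0.79) in prophase I and was at -0.15, -0.07, -0.08, -4.62 and -4.56 in C2, and fell by 2.95 ± 0.75 on the log2 scale (SE, limma adjusted p = 0.00279). Replicates 1 to 3 were below the lowest prophase I array by at most 0.36, and the call was lost without C2 replicate 4 and without C2 replicate 5. Dppa3 (Stella), which protects the maternal genome from demethylation after fertilization, was at -1.84, -1.82, -1.89, -5.00 and -4.78 in C2 against values from -2.55 to -0.49 (median -1.55) in prophase I (-1.58 ± 0.57 SE, limma adjusted p = 0.0239). Its 3 higher C2 arrays were within the prophase I range.

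The genes of meiosis and RNA control were 6 probes, and none was called in the test of all 5 C2 arrays. Btg4 encodes an adaptor of the deadenylase that clears maternal messengers after maturation. It ranged from -4.36 to -2.37 (median -3.42) in prophase I and was at -2.88, -2.92, -2.99, -5.75 and -4.47 in C2. Replicates 1 to 3 were 0.43 to 0.54 above the prophase I median, whereas replicates 4 and 5 were below the lowest prophase I array and not above background. Mos encodes the kinase that holds the egg in metaphase II. Its C2 signals were -3.83, -3.27, -3.36, -4.10 and -4.62, against values from -5.81 to -2.05 (median -3.21) in prophase I, and replicate 5 was not above background. Replicates 1 to 3 lay among the prophase I arrays. Replicates 4 and 5 lay above NC1 replicate 4 alone, where the probe was not above background, and below the other 9 prophase I arrays, the lowest of which was at -3.90.

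Cpeb1, which binds the polyadenylation element of stored messengers, was at -3.07, -3.71, -3.58, -5.70 and -5.72 in C2 against values from -3.92 to -2.03 (median -3.02) in prophase I (-1.44 ± 0.47 SE, limma adjusted p = 0.0143). Ddx4, the germ cell helicase known as Vasa, was at -3.77, -3.31, -3.55, -5.47 and -5.92 against values from -3.93 to -2.15 (median -3.34) (-1.24 ± 0.46 SE, limma adjusted p = 0.0251). In both genes replicates 1 to 3 were within the prophase I range and replicates 4 and 5 below it. Pabpc1l, the poly(A) binding protein of the oocyte, was at -3.26, -3.18, -3.38, -3.38 and -3.80 in C2 against values from -3.38 to -1.72 (median -2.93) in prophase I. All 5 C2 arrays were above background. Replicates 1 and 2 lay within the prophase I range near its lower end, replicates 3 and 4 just below it and replicate 5 further below. Wee2, an inhibitory kinase of meiotic arrest, was above background in 6 of the 10 prophase I arrays and in no C2 array, and its difference was not called (limma adjusted p = 0.0495).

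The 3 transcription factors with a probe in the table regulate the genes of the growing oocyte. Nobox ranged from -2.69 to -0.93 (median -2.09) in prophase I and was at -5.28, -5.28, -5.26, -5.36 and -6.18 in C2, where no array was above background, and it was at least 7.40-fold lower at C2 (limma adjusted p = 1.53e-07). Lhx8 was above background in 8 of 10 prophase I arrays and in no C2 array, at least 2.41-fold lower at C2 (limma adjusted p = 2.72e-05). In these 2 genes the C2 values are bounds set by background, and no order among the C2 arrays can be read from them. Sohlh2 was near background throughout, with -4.32, -4.42, -4.75, -4.10 and -5.83 in C2 and values from -5.22 to -3.27 (median -4.41) in prophase I (-0.38 ± 0.31 SE, limma adjusted p = 0.299).

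Of the 8 remaining members, 5 had C2 replicates 1 to 3 within the prophase I range and replicates 4 and 5 below it. Tcl1, an activator of the kinase AKT that is abundant in eggs, ranged from -0.65 to 1.44 (median 0.25) in prophase I and was at 0.03, 0.58, 0.44, -6.79 and -5.12 in C2. Its replicates 1 to 3 lay around the prophase I median, and replicates 4 and 5 were at least 4.55 below them and not above background. Bcl2l10, a BCL2-family protein of the oocyte, was at 0.15, -0.17, -0.20, -5.38 and -4.87 in C2 against values from -1.01 to 1.24 (median -0.04) in prophase I. Oas1d, an oocyte member of the oligoadenylate synthetase family, was at -0.86, -0.56, -0.36, -4.61 and -5.98 against values from -1.65 to 0.41 (median -0.62). Rfpl4 and Omt2b shared this shape, with C2 replicates 1 to 3 at -0.10 to 0.24 and 0.41 to 1.20 from their prophase I medians and replicates 4 and 5 at -3.32 to -2.96 and -3.91 to -3.49. In all 5 genes replicates 4 and 5 were not above background. None of the 5 was called over all C2 arrays, with limma adjusted p from 0.031 (Bcl2l10) to 0.147 (Omt2b).

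Fbxw15, an F-box protein of an oocyte gene cluster, fell by 4.18 ± 0.57 on the log2 scale (SE, limma adjusted p = 1.03e-05), with values from -0.36 to 1.64 (median 0.53) in prophase I and C2 signals of -2.40, -2.61, -2.20, -5.09 and -5.63. Oog4 fell by 3.32 ± 0.48 on the log2 scale (SE, limma adjusted p = 1.88e-05), or at least 2.58, and was above background in C2 replicate 1 only. In both, all C2 arrays lay below the prophase I range. Uchl1 encodes a ubiquitin hydrolase that is abundant in oocytes and also in neurons. It went the other way: it ranged from -1.44 to -0.62 (median -0.99) in prophase I and was at 1.15, 1.54, 1.04, 1.04 and 0.81 in C2, a rise of 2.13 ± 0.16 on the log2 scale (SE, limma adjusted p = 9.7e-09), or 4.36-fold. The Uchl1 values of C2 replicates 4 and 5 were next to those of replicates 1 to 3, so that this probe did not move with the other members among the C2 arrays.

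By role, all 3 zona genes and Astl were lower at C2 among the 6 surface probes, 4 of 6 NLRP and subcortical complex probes were lower, 2 of 4 secreted factor and receptor probes, 2 of 4 chromatin and early embryo probes, 2 of 3 transcription factors, 0 of 6 meiosis and RNA control probes and 2 of the 8 others, while Uchl1 was higher. Over all probes 28.4% were lower, and with 3 to 8 probes a role these counts do not show that the roles differ. The median of the difference, C2 minus prophase I, was -4.26 in the surface group, -3.38 in the NLRP and subcortical group and -0.87 in the meiosis and RNA control group.

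A list of 69 other oocyte genes was followed in the same way, and 48 of them had a probe in the table. The direction of their calls was thus partly set by the choice of probes, as for the members. Of these, 27 were lower at C2 (28.4% of all probes) and 1 was higher (Rbpms2, an RNA-binding protein, by 1.40 ± 0.18, SE), none differed between C1 and NC1, and 34 had C2 replicates 1 to 3 above replicates 4 and 5 (19.2% of all probes). Again some lay within the prophase I range in C2 replicates 1 to 3 (19 of 48, against 22.8% of all probes) and some below it (23 of 48, against 22.4%). Obox1, a homeobox gene of the oocyte, was at 0.64, 1.15, 1.34, -7.04 and -6.56 in C2 replicates 1 to 5, against 0.21 to 2.67 in prophase I. Replicates 1 to 3 were within the prophase I range, and replicates 4 and 5 were not well above background. Khdc3 (Filia), a further member of the subcortical complex, was at -2.75, -2.72, -2.54, -4.17 and -4.26 in C2 and fell by 3.55 ± 0.36 (SE; limma adjusted p = 3.38e-07). Gtsf1, a germ cell factor of transposon silencing, was above background in no C2 array.

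The 10 genes outside the list with the largest measured distance between C2 replicates 1 to 3 and replicates 4 and 5 were Obox1, AU022751, Obox3, C86187, Gm13023, Khdc1b, Accsl, Trim61, Fbxw14 and C87414, and they were chosen by that distance. Khdc1b was above background in both replicates 4 and 5, at a log2 distance of 4.81, and Trim61, above background in 1 of these arrays, was at 4.62. The other 8 were above background in neither, so that their distances are bounds, of at least 5.58 (AU022751), 5.15 (Obox1), 4.29 (C86187), 3.76 (Accsl), 3.72 (Fbxw14), 3.50 (Obox3), 2.81 (Gm13023) and 2.54 (C87414). Of these 10, 6 are on the list of other oocyte genes, of which 48 had a probe among the 20855 of the table. That list was written with earlier results of these data known, so the overlap is only a description.

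Between prophase I and C2, markers of other cells changed too. Of the cumulus and granulosa markers 11 of 12 were lower at C2, of the theca and stroma markers 6 of 7 (and 1 was higher, Star), and of the red blood cell markers 5 of 5, while 3 of 6 leukocyte markers were higher. The 8 oviduct epithelium markers went both ways, with 3 higher (Ovgp1, Krt8 and Krt18) and 3 lower (Epcam, Tppp3 and Tekt1). Of the red blood cell markers 4 of 5 were also lower at C1 than at NC1, and their summed level was 6.20 to 8.78 at NC1, 3.39 to 5.44 at C1 and 3.31 to 4.66 at C2, so that C1 and C2 overlapped. The summed cumulus and granulosa level was 8.41 to 8.94 in prophase I and 6.01 to 6.57 in C2, the summed theca and stroma level 3.40 to 5.65 and 0.04 to 0.86, the summed leukocyte level 1.85 to 2.76 and 2.22 to 3.25, and the summed oviduct epithelium level 2.75 to 3.64 and 4.64 to 4.93. Krt18 and Krt8 had the highest C2 signals of the 8 oviduct epithelium markers and weighed most in their C2 sum. The part of these markers of other cells in the differences of the oocyte genes was not tested.

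Among markers of other cells, replicates 1 to 3 were all above replicates 4 and 5 for 1 of 12 cumulus and granulosa markers, 1 of 8 oviduct epithelium markers, 0 of 5 red blood cell markers, 0 of 6 leukocyte markers and 1 of 7 theca and stroma markers. The summed cumulus and granulosa level was 6.01 to 6.17 in C2 replicates 1 to 3 and 6.41 to 6.57 in replicates 4 and 5, which were thus higher. The summed theca and stroma level was 0.68 to 0.86 in replicates 1 to 3 and 0.04 to 0.59 in replicates 4 and 5, the order of the oocyte genes. Of the 7 markers only Star had this order, at 0.12, 0.05 and 0.41 against -0.35 and -0.88. Its C2 signals were the highest of the 7 and weighed most in the sum. Col1a1 had the opposite order, at -3.86, -3.70 and -3.94 against -3.49 and -3.46. The oviduct epithelium, leukocyte and red blood cell sums overlapped between these arrays. The part of these markers in the difference among the C2 arrays was not tested. The summed level of the 48 other oocyte genes was 4.09 to 4.14 in replicates 1 to 3 and 2.40 to 2.45 in replicates 4 and 5, against 4.45 to 5.82 in prophase I. These sums rested largely on few genes. Tdrd5, which was lower at C2, weighed most in every prophase I array except C1 replicate 1. Rbpms2, which was higher at C2, was at 2.01 and 1.98 in C2 replicates 4 and 5 and weighed most there.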

How the data were processed

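The authors labelled cumulus cell RNA with Cy3, hybridized it to Agilent arrays and deposited each array's Feature Extraction output (version 10.7.1.1 per the file headers, 10.5.1.1 per the submitters' processing notes), in which the processed signal is a background-subtracted intensity with no scaling between arrays. A second deposited file by the authors gave log2 values for the 20855 gene probes that were present in at least 1 stage. Against the intensities it was the log2 signal plus 1 constant per array (SD at most 0.00742 over probes), and it was used to choose probes and as an alternative. All value columns of that table belonged to one of the 15 arrays.

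For this report spots of a probe were averaged, flagged and control spots were left out, log2 was taken and each array's median over 17323 probes, well above background in at least 4 of 5 arrays of each stage, was subtracted. limma (version 3.58.1, R 4.3.3) was fitted to the 20855 probes over 15 arrays, with the Benjamini-Hochberg adjustment over all probes at 0.01, as in the methods, and two-sided contrasts of C1 against NC1 and of C2 against the mean of NC1 and C1. The filter of probes was wider than that of the paper, which kept only probes present in most replicates of every condition. By the rule of 4 of 5 arrays of each stage, 9 of the 37 member probes would have stayed. The fit had 22 missing values, none in a member. It was tested on simulated data. A probe below background in all arrays of C2 was given as a bound: the bright mean over the mean, per C2 array, of the higher of its own signal and the lowest signal among probes above background. After the data were seen, the same floor was applied to single C2 arrays below background. The floor is not the detection limit of each probe. In C2 replicate 3 it was -4.23, and Gpr3 at -4.13 was not above background there. Summed levels are log2 of summed linear signals of 1 probe per gene, the one with the highest mean. Precision is limited by 5 arrays per stage. The labels do not say whether the pools shared animals, so p-values measure the spread between these pools.

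The members, role groups, gene lists and the split of the C2 arrays were chosen with earlier results of these data known. Named genes are all members, the genes of the lists with counts, and the 10 other genes with the largest distance between C2 replicates 1 to 3 and 4 and 5. Alternatives were other scalings, filters, background correction, models and left-out arrays. The files held no mean signal, so normexp was run on the spot medians. Promoters came from RefSeq (GRCm38.p6) by symbol.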

Additional observations from a re-analysis of the deposited data

Results flagged for a closer look

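Of the 111 groups of 5 arrays (37 probes at 3 stages), 2 held an array that lay apart from the other 4 by Dixon's criterion at the 95% level, and chance alone marks about 1 group in 20. Nobox in C2 replicate 5 was at -6.18, while the other C2 arrays were between -5.36 and -5.26, all 5 of them not well above background. Sohlh2 in C1 replicate 3 was at -3.27, while the other C1 arrays were between -5.22 and -4.69, and only 1 of the 5 C1 arrays was above background for this probe, which was not replicate 3.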

How the results depend on the processing

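No member differed between C1 and NC1 in any of 13 other settings or with any of the 15 arrays left out. Over the 14 settings for C2 against prophase I, Uchl1 was the 1 probe called higher in each. Of the 17 calls, 14 kept direction and call in all alternatives that fitted the probe, but for the 2 that left out several C2 arrays. Among these 14, only Npm2, Kit and Uchl1 were fitted under the filter of 4 of 5 arrays of each stage. The other calls, Bmp15, Nlrp4f and Zar1, were lost without C2 replicate 4 or 5, and the first pair also with slide as a block and against C1 alone. With 1 array left out, 13 to 18 probes were lower at C2 and 13 to 17 passed the F-test. Among the 9 members above background in at least 4 of 5 arrays of each stage, 2 were lower at C2 and 3 passed the F-test, a filter that leaves out members below background at C2. In fits added after the data were seen, 28 were lower and 29 passed the F-test without C2 replicates 1, 2 and 3, which follows from the choice of the 2 arrays where these genes were low and supports nothing. In such a fit without C2 replicates 4 and 5, the difference turned positive for Oosp1 (0.44 and 0.31), H1foo (0.046), Btg4 (0.33), Zbed3 (0.41) and Omt2b (0.48), and without replicates 1, 2 and 3 that of Tle6 was -0.091. Zbed3 was also positive with the median of all gene probes (0.17), quantile scaling (0.12) and the authors' table (0.17), and ranged from -0.35 to 0.17 with 1 array left out, being positive without NC1 replicate 2 (0.059), C1 replicate 1 (0.00065) or 2 (0.0027), or C2 replicate 4 (0.026) or 5 (0.17). Tle6 was negative with quantile scaling (-0.048) and against C1 alone (-0.095).

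Scaling by the median of all gene probes moved the median difference of the well-measured probes by 0.26 for C2 against prophase I and by -0.11 for C1 against NC1, and scaling by spike-in probes moved the latter by 0.135. Across the scalings, the authors' table and normexp, and among the 29 probes above background in C2 replicates 1 to 3, 27 to 33 probes had replicates 1 to 3 above replicates 4 and 5, and 9 to 14 had replicates 1 to 3 below the prophase I range (9 under that background filter, which left out 8 probes).

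Replicate numbers did not pair the arrays: same-numbered arrays correlated between -0.24 and 0.35 over 15 pairs, and 5 of 15 arrays correlated best with an array of their own number. With a replicate block, 24 probes were lower at C2, 1 was higher, 0 differed between C1 and NC1 and 21 passed the F-test. The minimum change of 2-fold left 16 lower. Signals of C2 replicates 4 and 5 were mostly below background, so that the size of their distance from the other arrays is limited by background.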
